A study of Rattus norvegicus with 10 samples.

Results

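The beta-crystallin family of the rat lens was examined through its 6 listed genes. They were chosen by gene symbol alone, the basic members Crybb1, Crybb2 and Crybb3 and the acidic members Cryba1, Cryba2 and Cryba4, out of 3334 genes in the deposited RNA-seq table. The samples were lens capsules of male Sprague-Dawley rats, 5 rats per group, and both capsules of 1 rat made up 1 sample. Rats of the Hypothermia Group gave whole lenses that were kept isolated in Hibernate-A medium at 4°C for 8 h before the capsule was taken off, whereas capsules of the Normal Group were taken straight after death, without medium or incubation. Temperature, the 8 h outside the body, the medium and the isolation of the lens therefore differed together between the groups and cannot be told apart. The comparison asks what cold storage of the lens does to the transcripts of its capsule, the setting of cold cataract, in which a cooled lens turns opaque.

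Beta-crystallins are structural proteins of the lens and belong, with the gamma-crystallins, to a superfamily built from Greek key domains. They assemble into dimers and larger oligomers, fill the cytoplasm of the lens fibre cells at high concentration and contribute to the refractive power and transparency of the lens, and mutations in several of them cause inherited cataract. The basic proteins carry extensions at both ends of the chain and the acidic proteins at the N-terminal end only. Their transcripts are known to be most abundant in differentiating fibre cells, the cells that the epithelium under the anterior capsule gives rise to.

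The members lay on 3 chromosomes of Rnor_6.0, the build of the table. Chromosome 12 carried 4 of them in 2 close pairs. Crybb3 (49565992 to 49571006, plus strand) and Crybb2 (49578633 to 49588555, plus strand) pointed the same way with 7626 bases between them. Crybb1 (50390940 to 50404550, minus strand) and Cryba4 (50407843 to 50414432, plus strand) pointed away from each other with 3292 bases between them. The pairs were separated by 802384 bases, and the whole cluster covered 848441. Cryba1, whose transcript yields both the A3 and the A1 protein from alternative start codons, lay on chromosome 10 (65161152 to 65167494, plus strand), and Cryba2 on chromosome 9 (82151057 to 82154266, minus strand).

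All 6 members matched a promoter in the RefSeq table of the assembly GRCr8, from 250 bases before to 50 bases after the annotated start, and 4 of these windows are shown because the members moved together and because each held a motif that was looked for on both strands. Capitals mark the matches, TGCTGA (the core of the site that Maf factors bind, read TCAGCA where it lay on the minus strand) and TATAAA (the TATA box). Sequences run 5′ to 3′ along the gene's own strand, as GRCr8 gives it: chr12:50043707-50044006 (minus) for Crybb1, chr12:50046799-50047098 (plus) for Cryba4, chr10:63112768-63113067 (minus, while the Rnor_6.0 table has plus) for Cryba1 and chr9:83899082-83899381 (minus) for Cryba2.
Crybb1: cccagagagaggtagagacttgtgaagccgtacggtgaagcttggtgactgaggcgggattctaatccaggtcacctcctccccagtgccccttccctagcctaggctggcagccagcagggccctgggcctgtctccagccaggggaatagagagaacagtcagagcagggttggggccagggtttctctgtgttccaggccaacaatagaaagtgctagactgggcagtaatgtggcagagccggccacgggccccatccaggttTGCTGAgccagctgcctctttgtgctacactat
Cryba4: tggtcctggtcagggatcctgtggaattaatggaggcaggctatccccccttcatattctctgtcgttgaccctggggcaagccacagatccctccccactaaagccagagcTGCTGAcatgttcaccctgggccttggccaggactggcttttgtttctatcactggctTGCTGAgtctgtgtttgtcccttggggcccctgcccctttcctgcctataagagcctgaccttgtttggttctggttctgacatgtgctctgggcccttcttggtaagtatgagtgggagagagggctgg
Cryba1: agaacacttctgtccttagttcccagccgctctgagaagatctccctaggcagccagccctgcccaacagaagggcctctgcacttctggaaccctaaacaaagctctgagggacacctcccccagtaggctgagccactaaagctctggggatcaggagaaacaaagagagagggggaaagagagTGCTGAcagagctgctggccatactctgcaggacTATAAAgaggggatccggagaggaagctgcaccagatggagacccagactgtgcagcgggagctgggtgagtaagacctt
Cryba2: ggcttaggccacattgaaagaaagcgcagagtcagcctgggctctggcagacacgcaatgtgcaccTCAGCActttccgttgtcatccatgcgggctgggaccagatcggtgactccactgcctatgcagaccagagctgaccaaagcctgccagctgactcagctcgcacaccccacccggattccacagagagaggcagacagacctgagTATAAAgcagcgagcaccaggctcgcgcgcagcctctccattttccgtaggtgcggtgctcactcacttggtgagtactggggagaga

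Counting the first transcribed base as 1 and giving the first base of each match, TGCTGA began at 18 in Crybb1, at -138 and -80 in Cryba4 and at -64 in Cryba1, and its reverse complement began at -184 in Cryba2. TATAAA began at -30 in Cryba1 and at -38 in Cryba2. TGCTGA thus occurred in 4 of the 6 members and in 18.4% of the 33469 promoters of the table. TATAAA occurred in 2 of the 6, against 14.2% of all promoters. ACAATG, the core that Sox factors bind, and GAANNTTC, a core of the heat shock element, were in none of the 6 windows, and 13.2% and 8.59% of all promoters held them. The windows of Crybb2 and Crybb3 held none of the 4 motifs. Whether the annotated starts are those used in the lens was not tested, so absence from a window need not mean absence from the promoter. The motifs do not overlap one another in these windows, and a match in letters is not a binding site.

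The table was not a list of all expressed genes. It had been selected by the outcome, and among the 3222 genes that passed the filter on low counts the smallest size of a log2FoldChange (Hypothermia over Normal) was 0.25. Each Hypothermia rat had 9026144 to 12415121 reads counted to listed genes, and each Normal rat had 4792595 to 8177803. The authors' size factors, by which counts are divided to correct for depth, ran the other way. They were 0.744 to 0.980 in the Hypothermia rats and 1.08 to 1.26 in the Normal rats, so this scaling itself raised Hypothermia values relative to Normal values. The listed totals cover the selected genes only and need not follow the depth of the whole libraries. The lowest count of any member in any rat was 27493, for which counting error alone is 0.603%, so the spread between rats and not the depth set the precision of every value below. How reads that fit more than 1 crystallin gene were counted is not given in the sources used here, and sharing of reads between members was not tested.

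Every member was higher in the Hypothermia Group, by a log2FoldChange between 1.97 for Crybb2 and 2.28 for Cryba4, and the ratio of the group mean levels lay between 3.91 and 4.85. All 6 were called up-regulated (log2FoldChange above 1 and an adjusted p under 0.05, Benjamini-Hochberg, in the quasi-likelihood test of edgeR), beside 331 of the 3222 tested genes, or 10.3%. For all 6, every Hypothermia rat lay above every Normal rat, which held for 1349 tested genes, or 41.9%. Since the table lists genes that differed in this contrast, some difference was given with their listing, and no tested gene had a size under 0.25. The direction and the size beyond that were not given. Of the 3222 tested genes, 2053 had a log2FoldChange above 0. All 6 members passed the filter on low counts.

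**Figure D1:**
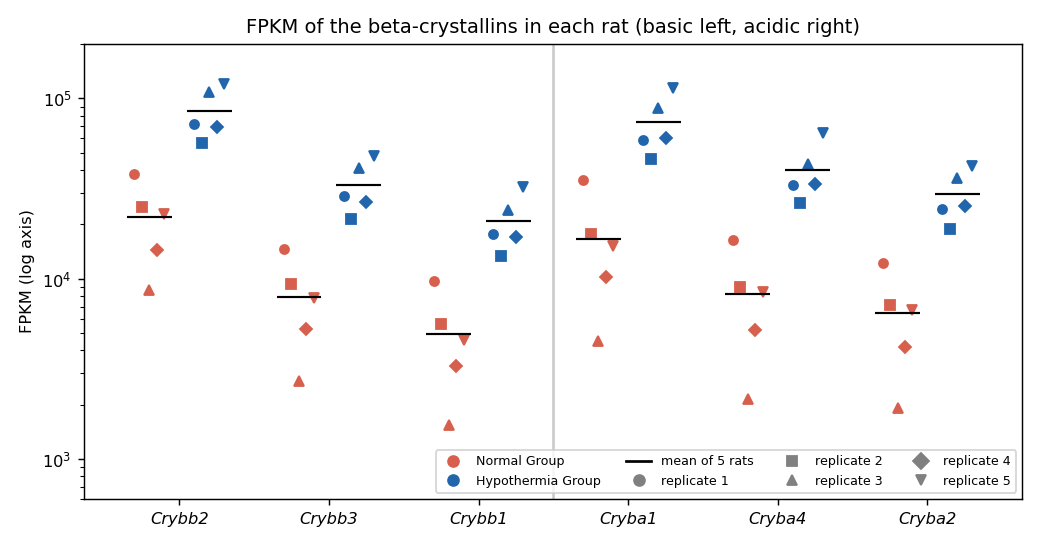
FPKM of each beta-crystallin in each rat on a log axis, with the basic members on the left and the acidic members on the right; symbols mark the replicate number, colours the group, and bars the mean of 5 rats. No member's groups overlap, Normal replicate 1 is the highest and Normal replicate 3 the lowest Normal rat for each of the 6 members, and Hypothermia replicate 2 is the lowest Hypothermia rat for each.

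Of the basic members, Crybb2 was the most abundant transcript of the family. Its protein is among the most soluble crystallins, and its level is given in FPKM (fragments for each kilobase of the gene's length, corrected for sequencing depth), which allows levels of different genes to be compared per length. In replicates 1 to 5 of the Hypothermia Group, Crybb2 stood at 72369.5, 56627, 108599, 69052 and 120135 FPKM. The corresponding Normal rats had 38210.3, 25080.5, 8622, 14494 and 22779 FPKM. The groups were separate, with the lowest Hypothermia rat 1.48 times as high as the highest Normal rat. Mean levels were 85357 ± 27430.2 FPKM (SD, n = 5) against 21837 ± 11270.1 (SD, n = 5), and the log2FoldChange was 1.97 (SE 0.43, edgeR adjusted p = 0.0119).

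Crybb3 lies next to Crybb2 and encodes a further basic chain. Its Hypothermia rats stood at 28646, 21427, 41075, 26741 and 47984 FPKM in replicates 1 to 5. Its Normal rats stood at 14520.3, 9343, 2687, 5228 and 7813 FPKM. The closest rats of the 2 groups were again Hypothermia replicate 2 and Normal replicate 1, 1.48-fold apart. The log2FoldChange was 2.07 (SE 0.43, edgeR adjusted p = 0.0101), with means of 33175 ± 10973 and 7918 ± 4478 FPKM (SD, n = 5 each).

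Crybb1, a basic member whose N-terminal extension is the longest of the family, had the lowest level of the 6 per length. Values were 17662, 13339.7, 23971, 16946 and 32143 FPKM in Hypothermia replicates 1 to 5. They were 9757, 5619, 1549, 3289.7 and 4567 FPKM in Normal replicates 1 to 5. The gap between the groups was 1.37-fold. Means of 20812 ± 7400.4 and 4956 ± 3083 FPKM (SD, n = 5 each) went with a log2FoldChange of 2.07 (SE 0.45, edgeR adjusted p = 0.0120).

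Cryba1 was the most abundant acidic member. Hypothermia replicates 1 to 5 had 58454, 46269, 88103, 60387 and 114618 FPKM of Cryba1. Normal replicates 1 to 5 had 35417, 17673, 4492, 10245 and 15229 FPKM. Here the groups came closest, at 1.31-fold, and the Normal rats spread most widely of all members, 7.88-fold between highest and lowest. Mean levels were 73566 ± 27585 FPKM against 16611 ± 11663 (SD, n = 5 each), a log2FoldChange of 2.15 (SE 0.51, edgeR adjusted p = 0.0175). It was also the member whose call rested on single rats: without Normal replicate 4 the log2FoldChange was 2.01 with an edgeR adjusted p of 0.0519, and without Normal replicate 5 it was 2.12 with 0.0503. None of the other 5 members lost its call when any 1 of the 10 rats was left out.

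Cryba4, the acidic member of the chromosome 12 cluster, had the largest log2FoldChange of the 6, 2.28 (SE 0.49, edgeR adjusted p = 0.0111). Its FPKM in Hypothermia replicates 1 to 5 were 33227, 26348, 43249.5, 33415 and 63773. In Normal replicates 1 to 5 they were 16468, 9015, 2159, 5191 and 8414. The gap between the groups was the widest of the family, 1.60-fold, with means of 40003 ± 14589 and 8249 ± 5353 FPKM (SD, n = 5 each).

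Cryba2, an acidic chain and the only member on chromosome 9, showed the smallest adjusted p. It measured 24263, 18763, 36109.8, 25123.5 and 42083 FPKM in Hypothermia replicates 1 to 5. Normal replicates 1 to 5 measured 12240.7, 7153, 1922, 4175 and 6683 FPKM. The groups stood 1.53-fold apart, and the means were 29269 ± 9534 and 6434 ± 3865 FPKM (SD, n = 5 each). Its log2FoldChange was 2.19 (SE 0.45, edgeR adjusted p = 0.00962).

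The sizes of the 6 changes lay close together beside their standard errors of 0.43 to 0.51. Leaving out 1 rat at a time moved the log2FoldChange of a member to no less than 1.76 and no more than 2.69. The upper end came from leaving out Normal replicate 1, the Normal rat nearest to the Hypothermia Group. The Normal rats varied more than the Hypothermia rats: the coefficient of variation of the FPKM of a member was 51.6% to 70.2% in the Normal Group and 32.1% to 37.5% in the Hypothermia Group, and the spread from lowest to highest rat was 4.43-fold to 7.88-fold against 2.12-fold to 2.48-fold. This difference in spread is given as a description and was not tested.

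The median log2FoldChange of the 3222 tested genes was 0.36 with the authors' size factors, and the members stood 1.60 to 1.92 above it. With TMM factors (edgeR's trimmed mean of M values) on the listed genes that median was 0.07 and the members ranged from 1.69 to 2.01. Scaling to the listed-gene totals moved the median to -0.87, and the log2FoldChange of the members fell to between 0.80 and 1.15, still 1.67 to 2.02 above the median. Only Cryba1, Cryba2 and Cryba4 then passed a log2FoldChange of 1, while all 6 kept an edgeR adjusted p between 0.00397 and 0.0162. The family is itself a large part of those totals, as the next values show.

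**Figure D2:**
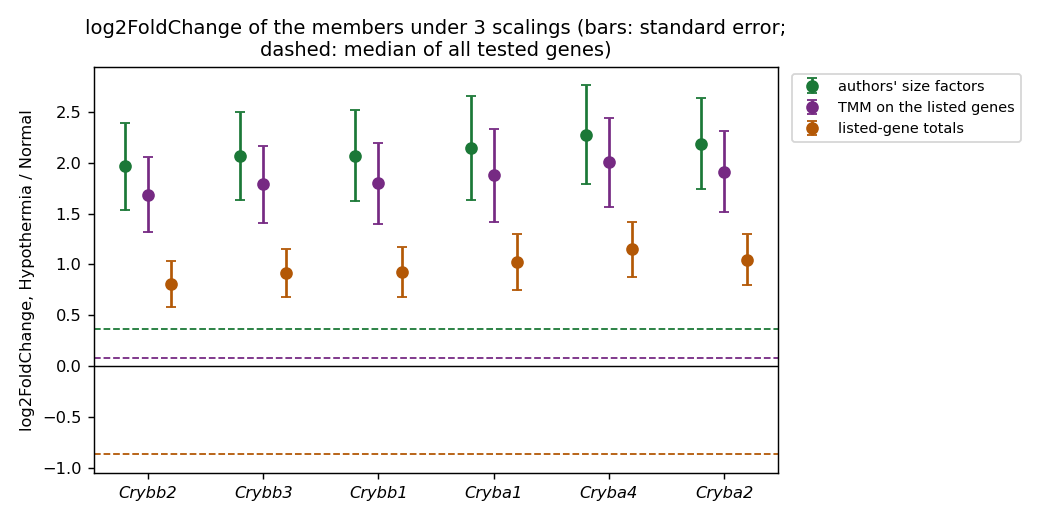
log2FoldChange of each member (Hypothermia over Normal, points, with the standard error as bars) under 3 scalings of the same counts, with the median of all tested genes under each scaling as a dashed line. All 18 points lie above 0 and above their own median line, and the points for listed-gene totals, 0.80 to 1.15, are the lowest.

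Together the 6 members took 25.7%, 24.7%, 29.8%, 27.6% and 32.3% of the listed counts in Hypothermia replicates 1 to 5. In Normal replicates 1 to 5 they took 21.4%, 16.4%, 7.14%, 11.9% and 15.6%. The groups did not overlap in this share for the family, and all Hypothermia rats lay above all Normal rats for each of its 6 members taken alone, as for 39 of the 3222 tested genes, or 1.21%. Summed over the family, FPKM were 182773 to 420736 (median 234623) in the Hypothermia rats and 21430.2 to 126613 (median 65484) in the Normal rats. Normal replicate 3 had the lowest sum and Normal replicate 1 the highest of its group.

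The order of abundance was nearly fixed. Crybb2 was followed by Cryba1, Cryba4, Crybb3, Cryba2 and Crybb1 in all 5 Hypothermia rats and in Normal replicates 1 and 5. The other 3 Normal rats differed from this order in 1 place only, with Crybb3 above Cryba4. Between rats the ranges of neighbouring members overlapped (Crybb2 and Cryba1, for example, shared the span from 56627 to 114618 FPKM in the Hypothermia Group), so the order is a property of each rat's own values and not of separate ranges.

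As a share of the summed FPKM of the family, Crybb2 made up 30.4% ± 1.26 in the Hypothermia Group and 34.6% ± 3.61 in the Normal Group (SD, n = 5 each). Cryba1 made up 25.9% ± 0.887 and 24.0% ± 2.53, and Cryba4 14.2% ± 0.911 and 12.1% ± 1.17. Crybb3, Cryba2 and Crybb1 made up 11.8%, 10.4% and 7.36% in the Hypothermia Group and 12.2%, 9.66% and 7.45% in the Normal Group. No share separated the groups completely. Crybb2 ranged from 28.6% to 31.8% in the Hypothermia rats and from 30.2% to 40.2% in the Normal rats, and its lowest and highest Normal values came from replicates 1 and 3.

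**Figure D3:**
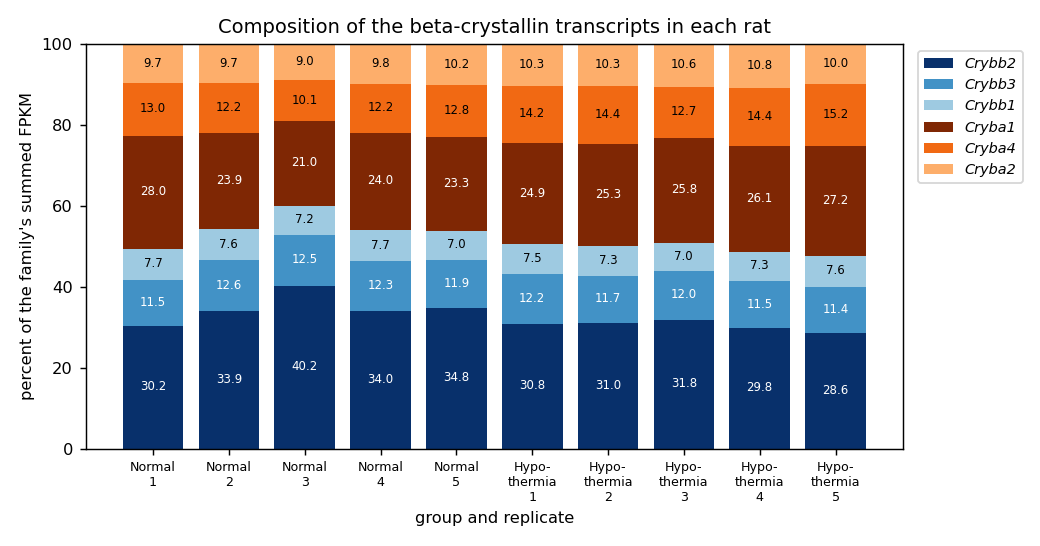
Percent of the family's summed FPKM taken by each member in each rat, basic members in blue at the bottom and acidic members in orange and brown on top. The blue part reaches 60.0% in Normal replicate 3 and 47.6% to 50.9% in the 5 Hypothermia rats.

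The basic members together accounted for 49.6% ± 1.39 of the family in the Hypothermia Group and 54.2% ± 3.79 in the Normal Group (SD, n = 5 each), and the acidic members for the rest, 50.4% and 45.8%. The ratio of basic to acidic FPKM was 1.0, 1.0, 1.0, 0.95 and 0.91 in Hypothermia replicates 1 to 5. It was 0.97, 1.2, 1.5, 1.2 and 1.2 in Normal replicates 1 to 5. Normal replicate 1, the Normal rat with most beta-crystallin transcript, lay inside the Hypothermia range, and the other 4 Normal rats lay above it. The 4 members of the chromosome 12 cluster made up 63.7% ± 0.849 and 66.3% ± 2.73 of the family.

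Ratios between members within a rat do not depend on the scaling of the libraries. For the 15 pairs of members the log2 ratio of their FPKM was compared between the groups by an exact permutation test (two-sided, over every assignment of the 10 rats to 2 groups of 5, smallest possible p 0.00794). None of the 15 passed an adjusted p of 0.05 over the 15 pairs, 7 had an unadjusted p under 0.05, and the lowest adjusted p was 0.0595. The direction was uniform between the classes: all 9 ratios of a basic to an acidic member were lower in the Hypothermia Group, by log2 differences of -0.42 to -0.12. These 9 ratios share their members and are not independent of each other. The 6 ratios within a class differed by -0.14 to 0.17, and their sign depends only on which member is written first.

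The ratio of Crybb2 to Cryba2 was the 1 pair whose groups did not overlap. It was 2.98, 3.02, 3.01, 2.75 and 2.85 in Hypothermia replicates 1 to 5 and 3.12, 3.51, 4.49, 3.47 and 3.41 in Normal replicates 1 to 5. On the log2 scale this was 1.55 ± 0.06 against 1.84 ± 0.20 (SD, n = 5 each), a difference of -0.29 (exact permutation p = 0.00794, adjusted p = 0.0595).

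Crybb2 to Cryba4 showed the largest difference of the 15, -0.42 on the log2 scale (exact permutation p = 0.0159, adjusted p = 0.0595). The ratio was 2.18, 2.15, 2.51, 2.07 and 1.88 in Hypothermia replicates 1 to 5 and 2.32, 2.78, 3.99, 2.79 and 2.71 in Normal replicates 1 to 5. Normal replicate 1 fell within the Hypothermia range.

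The close pairs of chromosome 12 differed less than Crybb2 to Cryba2 and Crybb2 to Cryba4. They differed more than some pairs on different chromosomes, such as Crybb1 to Cryba2 (-0.12). The divergent neighbours Crybb1 and Cryba4 had log2 ratios of -0.94 ± 0.06 and -0.69 ± 0.15 (SD, n = 5 each), a difference of -0.25 (exact permutation p = 0.0159, adjusted p = 0.0595). The tandem neighbours Crybb2 and Crybb3 had 1.37 ± 0.04 and 1.5 ± 0.11 (SD, n = 5 each), a difference of -0.14 (exact permutation p = 0.0238, adjusted p = 0.0714). Cryba1 and Cryba2, which lie on different chromosomes, kept the closest group means of all, with 1.31 in both groups (exact permutation p = 0.968).

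**Figure D4:**
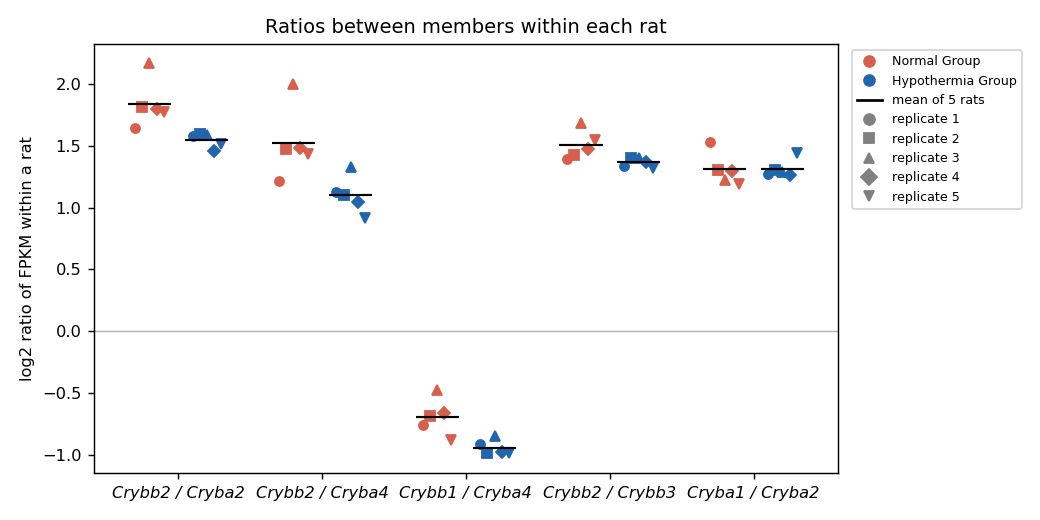
log2 ratio of FPKM between the members of 5 pairs within each rat, by group; symbols mark the replicate number and bars the mean of 5 rats. Only Crybb2 over Cryba2 has groups that do not overlap (1.46 to 1.59 in the Hypothermia rats and 1.64 to 2.17 in the Normal rats), and Cryba1 over Cryba2 has equal means.

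The pair ratios depended on which rats were included. Without Normal replicate 1, 10 of the 15 pairs had an adjusted p under 0.05 (exact permutation test, 126 assignments), 8 of them among the 9 basic to acidic ratios, whose differences ran from -0.49 to -0.11. Without Hypothermia replicate 3 there were 5 such pairs and without Normal replicate 5 there were 3. Leaving out any of the other 7 rats gave 0 pairs. All 9 basic to acidic ratios were lower in the Hypothermia Group in each of these 10 repeats, which share most of their rats.

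Within a group the members moved together from rat to rat. With 5 rats a group no correlation was computed, and each rat's deviation from its group's mean of the log2 normalized count is given instead. Normal replicate 1 lay above its group's mean by 0.98 for Crybb2 to 1.40 for Cryba1, and Normal replicate 3 lay at -1.64 for Cryba4 to -1.17 for Crybb2. In these 2 rats the acidic members deviated more than Crybb2 and Crybb3. The classes were not set apart, since the basic Crybb1 deviated more than the acidic Cryba2 in Normal replicate 1 (1.22 against 1.17). Normal replicates 2, 4 and 5 kept within 0.37 to 0.45, -0.42 to -0.35 and 0.13 to 0.32.

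Hypothermia replicate 5 was the highest rat of its group for each member, 0.55 to 0.74 above the mean, and Hypothermia replicate 2 the lowest, -0.59 to -0.53. Every rat had all 6 members on the same side of its group's mean. The Normal rats ranked 1, 2, 5, 4 and 3 by replicate number, from highest to lowest, for all 6 members. The Hypothermia rats ranked 5, 3, 1, 4 and 2 for the 3 basic members and 5, 3, 4, 1 and 2 for the 3 acidic members, so that only replicates 1 and 4, which lay close together, changed places. All these ranks follow the authors' size factors. As shares of the listed counts, Hypothermia replicate 4 lay above replicate 1 for the 3 basic members too (7.84% against 7.56% for Crybb2). Crybb2 was then highest in Hypothermia replicate 3 (9.09%, against 8.77% in replicate 5). In these shares Normal replicate 5 lay narrowly above Normal replicate 2 for Cryba2 and Cryba4. The SD of a single member's log2 level was 0.46 to 0.52 in the Hypothermia Group and 0.82 to 1.09 in the Normal Group, whereas the SD of the log2 ratios between members within a group ran from 0.04 to 0.30.

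**Figure D5:**
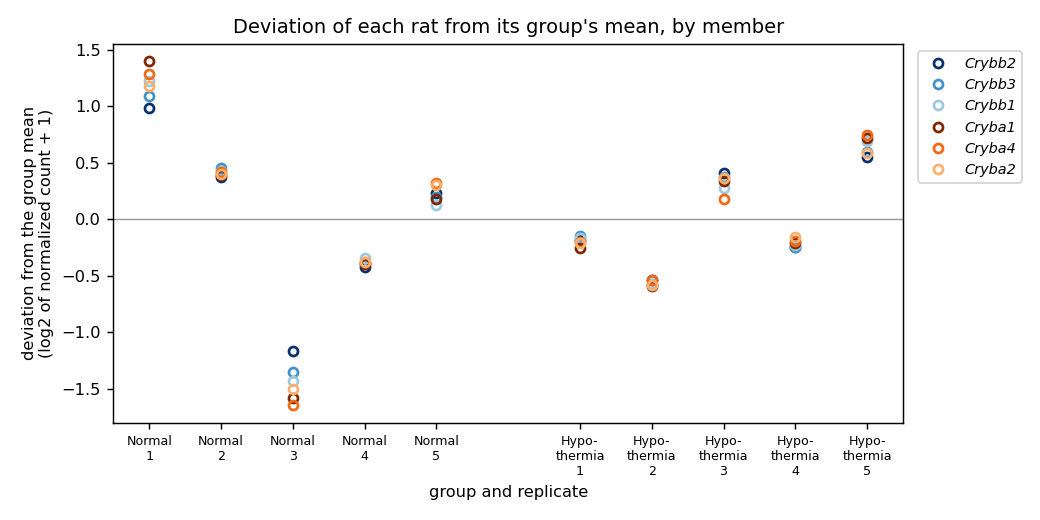
Deviation of each rat from the mean of its own group, in log2 of the normalized count, with 1 circle for each member. In each of the 10 rats the 6 circles lie on the same side of 0, and they spread most in Normal replicates 1 and 3, over 0.42 and 0.48.

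Outside the crystallins, the 5 listed genes with the profile closest to the mean of the family were taken by the root-mean-square difference of log2 normalized counts over the 10 rats, among 2980 genes whose mean normalized count reached 50. The members themselves lay 0.05 (Crybb1) to 0.16 (Crybb2) from the mean of the family, and the median gene lay 1.17 from it. The nearest were Palm2 at 0.16, a paralemmin that binds membranes, an unnamed gene at 0.17 (chromosome 3, 152468049 to 152549364, minus strand) and Pvalb at 0.18, the calcium buffer parvalbumin. Basp1, a membrane-bound signalling protein, and S100a4, a calcium-binding protein, lay at 0.21 and 0.22. Palm2 was thus about as near to the mean of the family as Crybb2, itself a part of that mean.

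These neighbours in profile were far lower in level than any member. S100a4 measured 906 ± 298 FPKM in the Hypothermia Group and 247 ± 126 in the Normal Group, and Palm2 34.6 ± 9.61 and 8.99 ± 6.18 (SD, n = 5 each). Their log2FoldChange values were 1.95 (SE 0.45) for Palm2, 1.93 (SE 0.40) for Pvalb, 1.89 (SE 0.36) for Basp1, 1.87 (SE 0.37) for S100a4 and 2.27 (SE 0.47) for the unnamed gene, a size that the choice by likeness over both groups fixed in advance and that is given as a description.

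A listed gene inside the chromosome 12 cluster behaved differently from the members around it. Hps4, a subunit of a complex that helps form lysosome-related organelles, lay between Crybb2 and Crybb1 (50285278 to 50314406, minus strand) and had a log2FoldChange of -0.34 (edgeR adjusted p = 0.0432). It was the only listed gene in the span that was not a beta-crystallin. Genes of the span outside the table were not analysed here.

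The other crystallins changed in the same direction as the beta-crystallins. Of 10 alpha- and gamma-crystallins looked for, 9 were listed and all 9 were called up-regulated, beside 10.3% of all tested genes. Their median log2FoldChange was 2.14, beside the 0.36 of all tested genes. The largest changes were those of Cryga (2.68, SE 0.73, edgeR adjusted p = 0.0351) and Crygf (2.62, SE 0.71, edgeR adjusted p = 0.0348), gamma-crystallins of the fibre cells. The smallest were those of the small heat shock proteins Cryaa (1.70, SE 0.43, edgeR adjusted p = 0.0236) and Cryab (1.51, SE 0.36, edgeR adjusted p = 0.0186). Each of these 4 calls was lost when certain single rats were left out, among them Normal replicates 4 and 5 in each case, where the edgeR adjusted p lay between 0.0528 and 0.0861. With TMM factors Crygf was not called (edgeR adjusted p = 0.0563), and with listed-gene totals none of these 4 was. Near-identical gamma-crystallin genes may share reads, so their separate values are uncertain. Of 8 other genes with a crystallin name or domain that are not lens crystallins, only the oxidoreductase Cryzl1 was listed, with a log2FoldChange of 0.33 that was not called and that turned to -0.92 with listed-gene totals.

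Of 23 lens transcription factors known to act on crystallin genes, 5 were listed and 1 was called up-regulated, beside 10.3% of all tested genes. That was Hsf4, a heat shock factor active in lens fibres, at 28.4 ± 10 FPKM in the Hypothermia Group and 6.27 ± 4.86 in the Normal Group (SD, n = 5 each), a log2FoldChange of 2.19 (SE 0.48, edgeR adjusted p = 0.0156). Maf, whose product drives crystallin genes in fibres, had 134 ± 27.1 and 86.0 ± 11.3 FPKM and a log2FoldChange of 0.64 (SE 0.14, edgeR adjusted p = 0.0134), below the threshold of 1, and listed-gene totals turned it to -0.59. Pitx3, a homeodomain factor of the lens, had a log2FoldChange of 0.34 that turned to -0.89 with listed-gene totals. Mafg, a small Maf partner, had 0.44. Pax6, the homeodomain factor of the lens epithelium that can repress the Crybb1 promoter, had -0.26 (SE 0.08, edgeR adjusted p = 0.0499), with 140 ± 7.29 FPKM in the Hypothermia Group and 167 ± 2.62 in the Normal Group (SD, n = 5 each). The log2FoldChange of Pax6 was -0.54 with TMM factors (edgeR adjusted p = 0.00355) and -1.48 with listed-gene totals (edgeR adjusted p = 5.6e-05), past the size of 1. With the authors' size factors its edgeR adjusted p was 0.0528 with robust = FALSE and 0.309 with the replicate number as a block. With 1 rat left out it ran from 0.0338 to 0.126, and it was under 0.05 only without Hypothermia replicate 2. DESeq2 with these factors gave Pax6 an adjusted p of 2.1e-05. With TMM factors Maf had 0.34 (edgeR adjusted p = 0.0619) and Pitx3 0.05.

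Markers of lens fibre cells were higher together with the members, whereas the listed markers of the lens epithelium were lower. Of 13 fibre cell markers, 10 were listed and all 10 were called up-regulated, beside 10.3% of all tested genes. They ran from Gja3 (1.35), a fibre connexin, to Mip (2.91), the aquaporin of the fibre membrane, with a median of 2.0. Their summed FPKM were 4617 to 11491 in the Hypothermia rats and 629 to 3057 in the Normal rats, without overlap. Taken singly, 41.9% of all tested genes had every Hypothermia rat above every Normal rat. The calls and sums of the fibre markers rest on the authors' size factors. Listed-gene totals called 37 of all tested genes in place of 331. Hsf4, counted among the transcription factors too, kept its call there (1.09, edgeR adjusted p = 0.00966). The other fibre markers are not given under that scaling. Of 10 epithelial markers, 3 were listed, Pax6, Gja1 and Notch2, and none was called (median log2FoldChange -0.43), with sums of 403 to 500.1 and 543 to 677 FPKM. Their edgeR adjusted p were 0.0499, 0.0568 and 0.0727. The labelled tissue thus carried epithelial transcripts in every rat beside a large amount of fibre transcripts, although capsules had been parted from the lens cortex. Fewer fibre cells on a capsule and less RNA of a gene per cell cannot be told apart in such bulk samples, and the part of the fibre markers in the change of the beta-crystallins was not tested.

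The summed FPKM of the family divided by that of the fibre markers was 28.9, 33.7, 50.3, 50.2 and 36.6 in Hypothermia replicates 1 to 5. It was 41.4, 56.7, 34.1, 50.7 and 42.1 in Normal replicates 1 to 5. The groups overlapped over most of their range, with medians of 36.6 and 42.1. All 10 fibre markers in the sum were themselves called up-regulated. Since the table was selected by the outcome, fibre markers that did not change could not enter the sum. The overlap was therefore partly given in advance, and no conclusion is drawn from it.

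Markers of other eye tissues were low. Of the fibroblast and stroma markers, 3 of 7 were listed (Fn1 called down-regulated at -3.09, edgeR adjusted p = 0.0293), with summed FPKM of 5.79 to 30.2 in the Hypothermia rats and 14.6 to 185 in the Normal rats. Retina (2 of 7 listed, 2.64 to 4.51 and 4.24 to 5.47 FPKM), pigment epithelium and ciliary body (5 of 8 listed, Pmel called down-regulated at -1.77 with an edgeR adjusted p of 0.0171, 1.49 to 6.65 and 3.57 to 32.7) and endothelium (1 of 4 listed, 0.917 to 1.26 and 1.0 to 2.39) were all below the lowest fibre marker sum. Of 5 genes looked for as markers of corneal and surface epithelium, Aqp5 alone was listed. It was called up-regulated (2.26, edgeR adjusted p = 0.00596), beside 10.3% of all tested genes, at 6.89 to 17.0 and 1.14 to 4.41 FPKM. Which cells its transcript came from was not tested, so it is not read as a sign of cornea. None of 7 blood and immune markers was listed. The share of all tested genes called down-regulated was not counted, so the calls of Fn1 and Pmel stand without it. Markers outside the table were not analysed here, and the part of these tissues in the values of the beta-crystallins was not tested.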

How the data were processed

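RNA-seq of lens capsules from 10 rats, 5 per group, was analysed. The submitters' processing notes name HISAT2 2.0.5, featureCounts 1.5.0-p3 and DESeq2 1.16.1 on Rnor_6.0. The annotation release, the strand setting and the treatment of multi-mapping reads are not given in the sources used here. The counts deposited by the authors are whole reads per gene without normalization. The deposited FPKM values divide the counts by gene length and by a depth that follows the same size factors in every rat. The deposited group means are a signal, normalized counts averaged over the rats, and other columns hold the authors' log2 fold changes and p-values, which were not used. Their table holds 3334 genes and was selected by the outcome.

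The authors' size factors were recovered from their group means by least squares (largest relative error 9.2e-10), and edgeR 4.0.16 (R 4.3.3) was run on the counts that passed filterByExpr, by glmQLFTest after a robust glmQLFit, on group alone. P-values were adjusted by Benjamini-Hochberg over 17005 genes, the number of expressed genes the study gives, since the table lists changed genes. Standard errors are log2FoldChange divided by the square root of F. Pair ratios were tested by exact permutation over all assignments of the rats, and normalized counts were logged with a pseudocount of 1. The fit was tested on simulated data. Promoters came from RefSeq (GRCr8), and protein sequences were not analysed here. The rule for named genes took the 6 members, the 5 nearest in profile and up to 4 of each list, highest and lowest first. The fifth listed transcription factor, Hps4 and the 3 called genes from the lists for other eye tissues were named after their values were seen. The members, lists, scaling and adjustment were chosen with earlier results of these data known. The alternatives run are named with their results in the closing section. Same-numbered rats are different animals, and p-values measure the spread between these rats. Figures were drawn with matplotlib 3.10.9.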

Additional observations from a re-analysis of the deposited data

Results flagged for a closer look

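Of 24 sets of 5 rats examined for a single rat far from the others, covering levels and shares of the members, 1 stood out, and chance gives about 1 in 20. The share of Cryba4 in the summed FPKM of the family was 10.1% in Normal replicate 3, while the other 4 Normal rats had 12.2% to 13.0%. The gap to the nearest rat was 0.718 of the range of the group, against a critical value of 0.71. This rat also had the lowest level of every member.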

How the results depend on the processing

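The direction of all 6 members held under every alternative run. All 6 were called with TMM, TMM without lens genes, median-of-ratios and upper-quartile factors, DESeq2, no filter, robust = FALSE and adjustment over the tested genes, and 5 or 6 with 1 rat left out. Scaling to listed-gene totals called 3, an adjusted p under 0.01 called 1, and glmTreat against a log2FoldChange of 1 called 0 (6 at an unadjusted p under 0.05). Of all tested genes, 331 were called up-regulated, against 185 with TMM, 186 with TMM without lens genes, 182 with median-of-ratios factors, 169 with upper-quartile factors, 37 with listed-gene totals, 142 at an adjusted p under 0.01, 0 with glmTreat (232 at an unadjusted p under 0.05) and 207 to 395 with 1 rat left out, the lowest without Normal replicate 4. Pairs of members past the threshold numbered 0, against 7 without adjustment and 0 to 10 with 1 rat left out (10 without Normal replicate 1). With listed-gene totals, Cryzl1 (-0.92), Pitx3 (-0.89) and Maf (-0.59) turned sign. Shares of counts in place of FPKM put Crybb1 at 9.45% and 9.58% of the family and Cryba2 at 9.28% and 8.63%. The causes were not tested, beyond the smaller number of rats and the stricter thresholds themselves.

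With the replicate number as a block, 4 members were called (Crybb2 with an edgeR adjusted p of 0.0605 and Cryba1 with 0.0611 were not), 276 tested genes and 0 pairs, for which a paired exact test cannot go below 0.0625. Correlations of same-numbered rats' deviations ran from -0.169 to 0.234, and no Hypothermia rat correlated best with the Normal rat of its own number. These values showed no pairing by number, and a batch shared by replicate number was not tested. Depth did not limit the members, and the outcome-selected table limits every count.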
